A study of Mus musculus with 4 samples.

Results

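The genes described here are the histone and DNA modifying enzymes and the numbered bromodomain proteins of primary mouse cardiac fibroblasts, with or without transforming growth factor beta (TGFbeta). They were taken by gene symbol: the histone deacetylase, sirtuin, lysine demethylase, MLL, EZH, SETD, SUV39, EHMT, DOT1L, BRD, p300/CBP, lysine acetyltransferase, DNA methyltransferase, TET and arginine methyltransferase names, leaving out Kdm5c, Kdm5d and Kdm6a. The naming rule itself uses no measured value, but the set was proposed with earlier results of these data known. The names found 83 genes of the 33641 listed, and 80 of them passed the limit of a mean of 1 TPM that was set for testing. TPM is a transcript level corrected for transcript length and scaled to the same total in every library.

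All cells came from wild-type C57BL/6J mice 12 weeks old, and both groups were given 4-thiouridine, a uridine analogue that lets RNA be crosslinked to bound protein under long-wave light, and were then crosslinked. A pair of libraries came from cells given vehicle and a pair from cells given 10 ng/ml TGFbeta, the cytokine that drives fibroblasts towards the contractile, matrix-producing myofibroblast state. The design text speaks of RNA recovered with HuR, the RNA-binding protein encoded by Elavl1, whereas the sample labels speak of total RNA, and which of these the libraries hold was not settled. No input library was analysed here, so HuR occupancy and cellular abundance cannot be told apart in any value below. It is not said whether replicates were separate cultures or animals, so p-values measure only the spread between these samples.

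Between 20945 and 21671 genes lay above 0 in each library, and read depth is unknown because TPM does not keep it. The fibroblast label was checked on its defining markers: Col1a1 lay between 2392 and 6221 TPM, Dcn between 865 and 1382 TPM and Pdgfra between 55.5 and 169 TPM. Of 13 fibroblast markers 2 fell with TGFbeta (Pdgfra and Tcf21) and 0 rose, beside 4.38% and 1.54% of all tested genes. The leukocyte markers Ptprc and Adgre1 lay between 1.05 and 1.42 TPM, the endothelial markers Pecam1 and Cdh5 between 4.17 and 7.35 TPM, the smooth muscle marker Myh11 between 3.92 and 4.92 TPM, and the cardiomyocyte marker Myh6 between 0 and 0.394 TPM. Tnnt2, a troponin also used as a cardiomyocyte marker, was at 47.0 and 81.4 TPM with vehicle and 35.2 and 34.6 TPM with TGFbeta. Other genes of these marker lists were higher: Lyz2 of the leukocyte list lay between 42.9 and 66.4 TPM, Egfl7 of the endothelial list between 17.0 and 34.3 TPM, and Smtn of the smooth muscle list between 236 and 301 TPM. Summed over each list, the leukocyte markers came to 71.8 to 108 TPM, the endothelial markers to 69.9 to 92.6 TPM, the cardiomyocyte markers to 70.5 to 133 TPM and the smooth muscle and pericyte markers to 357 to 462 TPM. The part of such cells in the members' levels was not tested. In such bulk samples fewer cells of a type and less RNA per cell cannot be told apart.

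DNA in the nucleus is wound on histones, and chemical marks on histone tails and on cytosine set how accessible a gene is. Acetyltransferases add acetyl groups that are read by bromodomain proteins and removed by deacetylases and sirtuins. Methyltransferases and demethylases write and erase methyl marks whose effect depends on the residue, and DNA methyltransferases and TET enzymes do the same for cytosine. Inhibitors of several of these classes have been studied as modifiers of myofibroblast activation, which is why their levels in this cell type are of interest.

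HuR binds AU-rich and U-rich stretches, chiefly in 3' untranslated regions, so the members' regions were searched for the pentamer ATTTA and the nonamer TTATTTATT, on the transcript strand only; every nonamer contains the pentamer. In GENCODE M21 the longest 3' untranslated region of at least 100 bases held ATTTA in 57 of 79 tested members with such a region (72.2%), beside 71.4% of 13156 tested genes. The nonamer was present in 7 members (8.86%), beside 8.54% of tested genes. These shares lay close to each other. Among the 4 members that fell with TGFbeta, described below, only Kat2b held the pentamer (9 copies) and none held the nonamer. The sites below are shown to make the searched element visible, with the nonamer, or for Kat2b the pentamer, in capitals and 12 or fewer bases on either side, on GRCm38.
Kat2b (chr17:53670902-53670930, plus strand): ctaaaacaggtcATTTAggtttttggttg
Tet1 (chr10:62807560-62807588, minus strand): ggttaataatTTATTTATTccttttctac
Crebbp (chr16:4082734-4082762, minus strand): tttaaggtttTTATTTATTtatatatatt
Dot1l (chr10:80794412-80794440, plus strand): aaaaatacttTTATTTATTcaaatgcaca
A match is a run of letters and not evidence that HuR sat there.

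RefSeq promoter windows on GRCm38.p6, from 250 bases before to 50 bases after a listed start, were matched by symbol for 69 of the 83 members, with 96 windows. The GC box GGGCGG, searched on both strands, was in 67.7% of member windows, 59.1% of the windows of tested genes and 35.7% of all windows. The Smad-type element CAGAC, likewise on both strands, was in 40.6% of member windows, 47.7% of those of tested genes and 49.6% of all windows. The E2F-type octamers TTTCGCGC and TTTGGCGC were again searched on both strands, and neither contains another of these motifs. They were in 1 and 2 of the 96 member windows (1.04% and 2.08%). The shares for windows of tested genes were 0.548% and 0.878%. A single Dnmt1 window holds the only TTTCGCGC match and 1 of the 2 TTTGGCGC matches among members. Counts this small cannot decide whether members differ from tested genes in these octamers. Windows of members had a median of 25 CpG dinucleotides and those of tested genes a median of 19. Dnmt1 and Kat2b, both of which fell, have contrasting windows and are shown for that reason. Where a gene lists several windows, the one with most CpG was picked, after the sequences had been seen. The Dnmt1 window holds 33 CpG, 2 GC boxes and 1 octamer of each E2F form, with boxes and octamers in capitals on either strand, and 1 CAGAC element that is not capitalised. The Kat2b window holds 11 CpG and none of these motifs.
Dnmt1 (chr9:20952574-20952873, minus strand): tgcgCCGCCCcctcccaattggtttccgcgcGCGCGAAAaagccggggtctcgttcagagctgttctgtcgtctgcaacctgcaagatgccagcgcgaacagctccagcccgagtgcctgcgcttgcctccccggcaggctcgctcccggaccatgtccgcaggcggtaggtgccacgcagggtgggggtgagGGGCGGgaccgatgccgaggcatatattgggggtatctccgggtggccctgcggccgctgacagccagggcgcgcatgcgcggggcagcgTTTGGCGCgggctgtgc
Kat2b (chr17:53566721-53567020, plus strand): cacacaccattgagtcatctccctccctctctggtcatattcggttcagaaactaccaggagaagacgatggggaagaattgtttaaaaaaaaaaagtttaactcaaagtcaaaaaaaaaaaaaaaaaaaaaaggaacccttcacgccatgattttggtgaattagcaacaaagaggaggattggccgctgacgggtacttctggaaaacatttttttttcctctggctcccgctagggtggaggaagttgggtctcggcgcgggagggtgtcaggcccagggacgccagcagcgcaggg

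With TGFbeta, 4 chromatin enzymes fell and 0 rose: the acetyltransferase Kat2b, the sirtuin Sirt7, the maintenance DNA methyltransferase Dnmt1 and the class IIa deacetylase Hdac7. A change is called here where the adjusted p of limma, corrected over all 15815 tested genes, is under 0.05. The 4 lower calls are 5.0% of the 80 tested members, and the lower calls over all tested genes are 4.38%, so the members' share lies near the background. The 0 higher calls stand beside 1.54% over all tested genes. The direction of calls over all tested genes depends on scaling, with 244 higher and 692 lower as reported and 421 higher and 401 lower after each library was scaled to a common median. At an unadjusted p under 0.05 there were 24 lower members (30.0%, beside 18.5% of all tested genes) and 0 higher members (beside 5.98%). This asymmetry depends on scaling: after median scaling 11 members were lower and 3 higher at that p, with 1673 lower and 1817 higher over all tested genes, and after quantile normalization 12 were lower and 4 higher, with 1824 and 1678 over all tested genes.

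As a description without a variance model, both TGFbeta libraries lay under both vehicle libraries for 41 members (51.2%), and this held for 39.8% of all tested genes. Both lay above for 6 members (7.5%), beside 15.5% of all tested genes. These 6 were Prmt1, Prmt3, Prmt6, Prmt7, Brd2 and Dnmt3b. The other 33 members had overlapping groups. The members' median log2 change was -0.19 and that of all tested genes -0.13; 62 members lay under 0 and 18 above, and 48 lay under the median of all tested genes. Scaling each library to a common median moved the median of all tested genes from -0.13 to 0.03, and that of the members to -0.04, so changes are also given below relative to the median of all tested genes.

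Summed over the 83 members, the level came to 4243 and 4157 TPM with vehicle and to 3573 and 3392 TPM with TGFbeta, which is 0.424%, 0.416%, 0.357% and 0.339% of each library. The sums do not overlap between treatments. They are weighted towards the most abundant members and were not taken under the scaling alternatives. After median scaling the members' median log2 change moved from -0.19 to -0.04, so the sums do not show a fall particular to the members. A difference of over 0.5 on the log2 scale was seen for 2 of the 80 tested members between the vehicle libraries, 2 between the TGFbeta libraries, and 10 to 19 between libraries of different treatments. As shares, this is 2.5% of members within either treatment and 12.5% to 23.8% between treatments, beside 12.44% and 13.01% of all tested genes within and 26.2% to 32.2% between treatments. The most abundant members over all 4 libraries were Hdac7 with a mean of 246 TPM, Prmt1 with 204 TPM and Brd2 with 189 TPM. At the other end, Suv39h2, Kdm4d and Prmt8 had means under 1 TPM and were not tested. Suv39h2, an H3K9 methyltransferase, was at 1.13, 0.85, 0.79 and 0.97 TPM, and Prmt8, an arginine methyltransferase known mainly from brain, was at 0.21, 0.12, 0.15 and 0.24 TPM (vehicle 1, vehicle 2, TGFbeta 1 and TGFbeta 2, the order used throughout). Kdm4d was at 0.21, 0.22 and 0.27 TPM and is listed at 0 in TGFbeta 2.

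**Figure D1:**
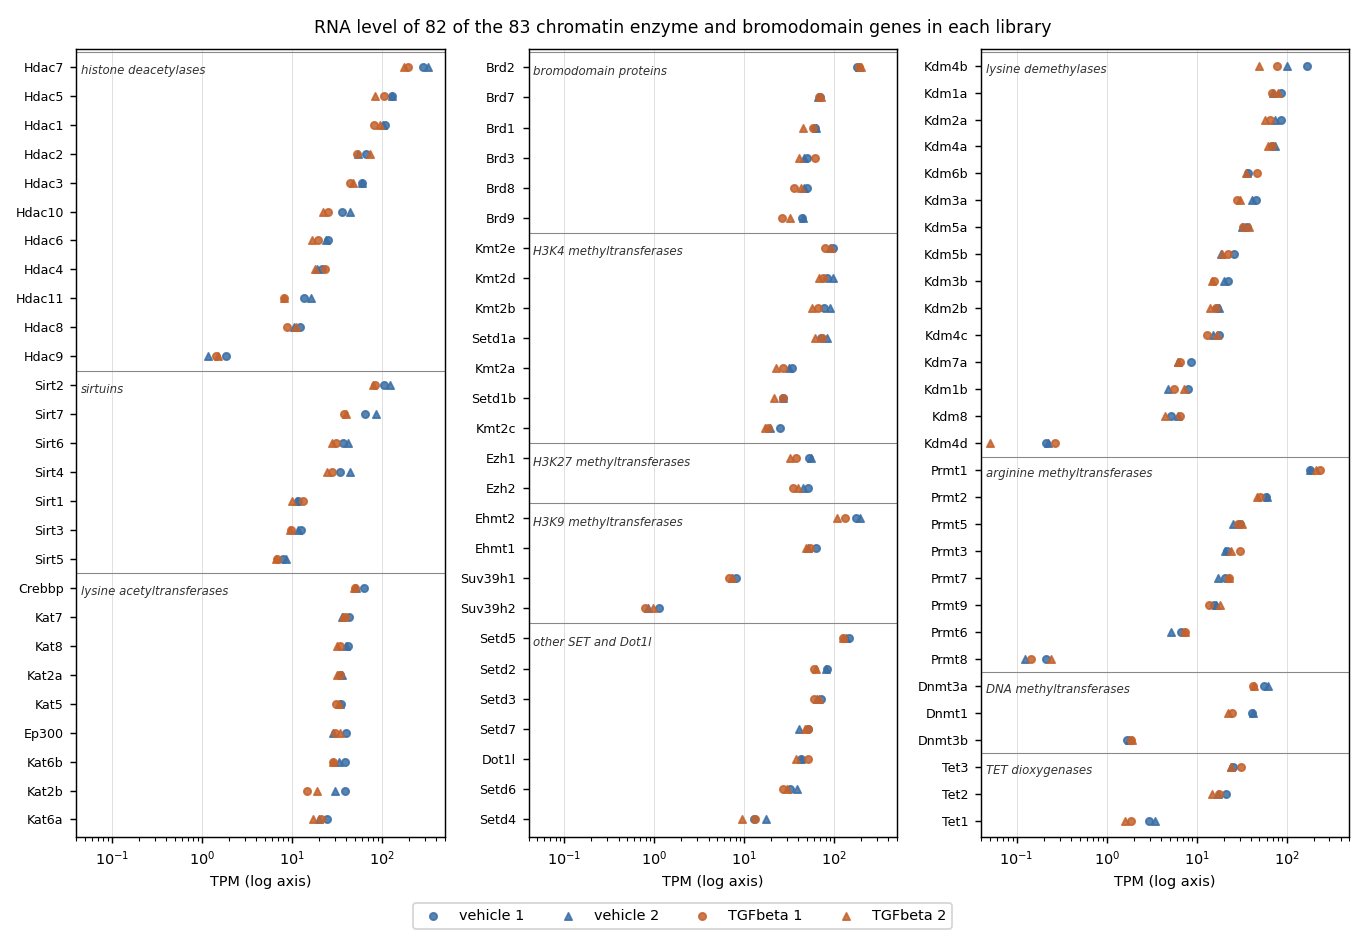
Level of 82 of the 83 members in TPM (log axis) in the 4 libraries, grouped by role and ordered by mean level. Blue marks vehicle and orange TGFbeta, circles replicate 1 and triangles replicate 2, and the value of 0 of Kdm4d in TGFbeta 2 is drawn at the left edge; levels run from under 1 TPM for Prmt8 and Kdm4d to 323 TPM for Hdac7 in vehicle 2.

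**Figure D2:**
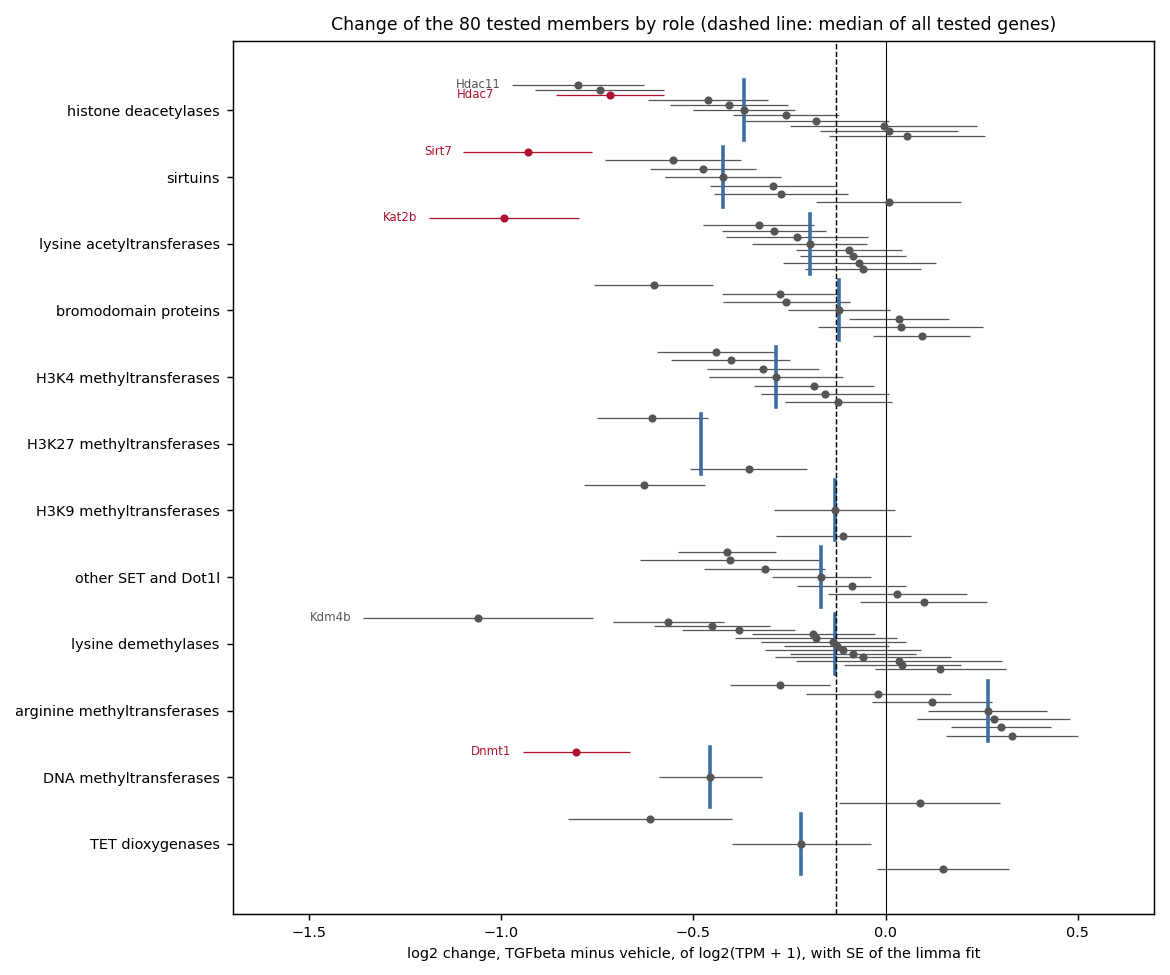
Log2 change (TGFbeta minus vehicle, of TPM plus 1) of the 80 tested members by role, with the SE of the limma fit. Red points are the 4 called members, blue bars the median of each role, and the dashed line the median of all tested genes at -0.13. As drawn, the arginine methyltransferases have the only role median above 0. After median scaling, which is not drawn, the bromodomain proteins (0.03), H3K9 methyltransferases (0.02) and lysine demethylases (0.02) also have medians above 0.

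Deacetylases remove acetyl groups from histones and other proteins. Of 11 tested class I, II and IV deacetylases 1 fell and 0 rose, and the median log2 change was -0.37. In 7 of the 11 both TGFbeta libraries lay under both vehicle libraries. Over all tested genes 4.38% fell and 39.8% had libraries separate in this way. Hdac7, a class IIa enzyme that works with the NCoR/SMRT corepressors and shuttles between nucleus and cytoplasm, was at 290 and 323 TPM with vehicle and at 197 and 175 TPM with TGFbeta. The lower vehicle library lay well above the higher TGFbeta library. The means were 306 ± 23.6 and 186 ± 15.001 TPM (SD, n = 2 each), 1.65-fold lower, with a log2 change of -0.72 (SE 0.14, adjusted p = 0.0433). Relative to the median of all tested genes the log2 change was -0.59. Hdac7 (ENSMUSG00000022475.19, chr15:97792664-97844502, minus strand) shares exon sequence with Slc48a1 on the opposite strand, a heme transporter gene whose log2 change was -0.34 (adjusted p = 0.258). Without knowledge of strand in the authors' counting, reads of this overlap cannot be assigned.

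Hdac11, the single class IV enzyme, was at 13.8 and 16.2 TPM with vehicle and 8.24 and 8.05 TPM with TGFbeta. The groups were separate but its adjusted p of 0.0520 (log2 change -0.80, SE 0.17) lay just past the threshold. Hdac1, the class I enzyme of the Sin3, NuRD and CoREST complexes, was at 108 and 103 TPM with vehicle and 82.2 and 94.9 TPM with TGFbeta (log2 change -0.26, adjusted p = 0.311). The class IIa enzymes other than Hdac7 gave a mixed picture. Hdac4 was at 21.6, 19.2, 23.2 and 18.0 TPM, with overlapping groups and a log2 change of 0.01. Hdac9, low in these cells, was at 1.85, 1.16, 1.43 and 1.52 TPM, also overlapping, and its log2 change of -0.00412 turned positive under both scaling alternatives (0.14 and 0.15). The level of Hdac7 was 13.4 and 16.9 times that of Hdac4 with vehicle and 8.47 and 9.74 times with TGFbeta, on the TPM scale.

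Sirtuins are NAD-dependent deacylases of nucleus, cytosol and mitochondria. Of 7 tested, 1 fell and 0 rose, 6 had separate groups with TGFbeta lower, and the median log2 change was -0.42. Over all tested genes 4.38% fell and 39.8% had separate groups with TGFbeta lower. Sirt7, the nucleolar sirtuin that removes acetyl groups from histone H3 lysine 18, was at 65.3 and 84.9 TPM with vehicle and 37.5 and 39.7 TPM with TGFbeta. Its vehicle libraries differed from each other more than the TGFbeta libraries did, yet the groups were far apart. The means were 75.1 ± 13.9 and 38.6 ± 1.58 TPM (SD, n = 2 each), 1.95-fold lower, with a log2 change of -0.93 (SE 0.17, adjusted p = 0.0362), or -0.80 relative to the median of all tested genes. Sirt7 (ENSMUSG00000025138.14, chr11:120618372-120625240, minus strand) shares exon sequence on its own strand with Mafg, a small Maf transcription factor gene, and Mir6936. Mafg was at 62.7, 74.3, 73.2 and 65.2 TPM, with overlapping groups and a log2 change of 0.02. How the authors' counting divided shared reads is not given, so the level of Sirt7 is uncertain to that extent.

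The remaining sirtuins were not called. Sirt2, the largely cytosolic tubulin and histone deacetylase, had the highest level of the class, with 107 and 122 TPM with vehicle and 84.0 and 79.9 TPM with TGFbeta (log2 change -0.47, adjusted p = 0.102). Sirt3, the main mitochondrial deacetylase, was at 12.5 and 11.6 TPM against 9.75 and 9.55 TPM (log2 change -0.29, adjusted p = 0.331). In both genes the groups were separate. Sirt1, the nuclear deacetylase best known from metabolic control, was at 11.6, 11.3, 13.2 and 10.1 TPM, and the groups overlapped.

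Acetyltransferases write the marks that deacetylases erase. Of 9 tested, 1 fell and 0 rose, beside 4.38% and 1.54% of all tested genes. In 5 the groups were separate with TGFbeta lower (beside 39.8%) and in 0 with TGFbeta higher (beside 15.5%). The median log2 change was -0.20, with -0.04 and -0.08 under median scaling and quantile normalization. Kat2b, also called PCAF, the acetyltransferase subunit of SAGA-type coactivator complexes, was at 38.5 and 30.4 TPM with vehicle and 14.7 and 18.9 TPM with TGFbeta. The means were 34.4 ± 5.75 and 16.8 ± 2.98 TPM (SD, n = 2 each), 2.05-fold lower, with a log2 change of -0.99 (SE 0.20, adjusted p = 0.0436), or -0.87 relative to the median of all tested genes. This was the largest called change among the members. Kat2b (ENSMUSG00000000708.14, chr17:53566861-53672720, plus strand) shares no exon sequence with another annotated gene.

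Kat2a, or GCN5, the paralogue that fills the same place in SAGA, was at 34.4 and 36.4 TPM with vehicle and 34.4 and 31.8 TPM with TGFbeta. Its groups overlapped and the log2 change was -0.09 (adjusted p = 0.726), and its sign turned under median scaling (0.06) and quantile normalization (0.05). Kat2b was at 1.12 and 0.835 times the TPM of Kat2a with vehicle and at 0.427 and 0.596 times with TGFbeta. The general coactivators Ep300 and Crebbp were not called. Ep300 was at 39.8, 28.4, 29.7 and 34.6 TPM, with overlapping groups. Crebbp was at 62.5 and 51.6 TPM with vehicle and 50.4 and 48.5 TPM with TGFbeta (log2 change -0.20, adjusted p = 0.474).

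**Figure D3:**
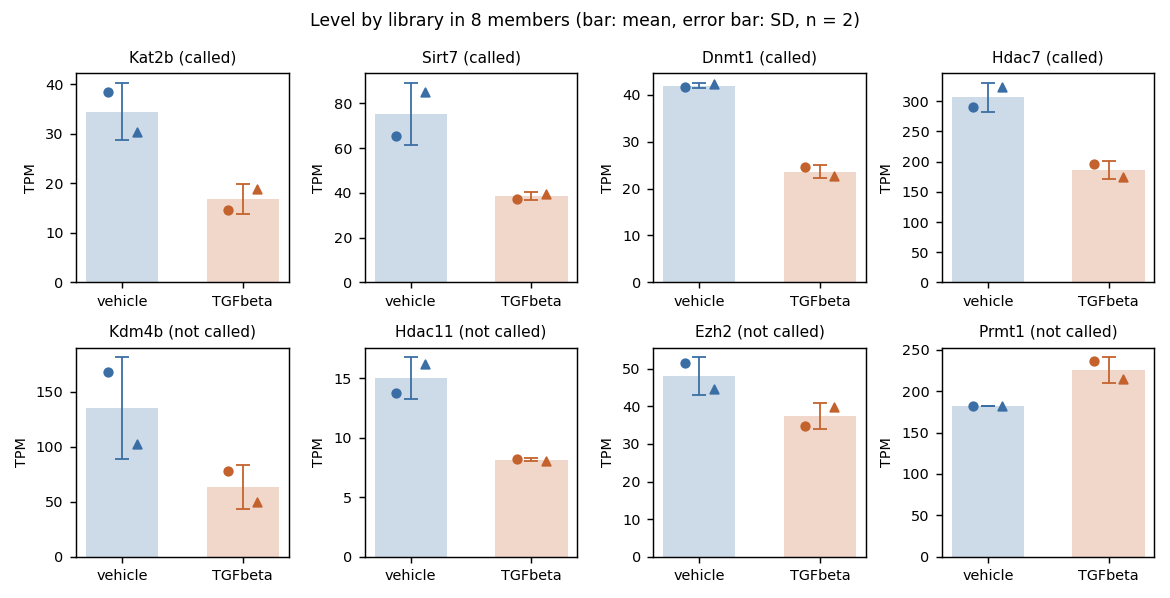
Level in TPM by library for the 4 called members and for Kdm4b, Hdac11, Ezh2 and Prmt1; bars are means from 0, error bars SD (n = 2), circles replicate 1 and triangles replicate 2. In each called member both TGFbeta libraries lie under both vehicle libraries, while Prmt1 lies at 214 and 236 TPM with TGFbeta and 182 and 183 TPM with vehicle.

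Bromodomain proteins read acetylated lysines. Of 7 tested, 0 were called by limma and 1 was lower at an unadjusted p under 0.05 (beside 18.5% of all tested genes). In 4 the groups were separate with TGFbeta lower (beside 39.8% of all tested genes) and in 1 with TGFbeta higher (beside 15.5%). The BET protein Brd2 was at 179 and 187 TPM with vehicle and 190.5 and 200.6 TPM with TGFbeta (log2 change 0.09, adjusted p = 0.701). Brd9, a subunit of the non-canonical BAF remodelling complex, was at 43.9 and 44.9 TPM against 26.1 and 31.9 TPM, with a log2 change of -0.60 (SE 0.15, adjusted p = 0.0776). Brd9 thus had separate groups with a 1.53-fold lower TGFbeta mean but did not pass the test.

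Methylation of histone H3 lysine 4 marks promoters and enhancers and is written by the MLL and SET1 families. Of 7 tested members of these families limma called 0. At an unadjusted p under 0.05, 2 were lower, beside 18.5% of all tested genes. In 4 the groups were separate with TGFbeta lower, beside 39.8% of all tested genes. The median log2 change was -0.29. Kmt2e, a family member without established methyltransferase activity, had the highest level with 96.8, 90.3, 79.9 and 92.1 TPM, and its log2 change of -0.12 turned to 0.03 after median scaling. Kmt2b was at 77.8 and 88.9 TPM with vehicle and 66.4 and 56.0 TPM with TGFbeta (log2 change -0.44, adjusted p = 0.146).

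Methylation of lysine 27 by the Polycomb repressive complex PRC2 silences genes, and its catalytic subunit is either Ezh1 or Ezh2. Neither was called by limma. At an unadjusted p under 0.05, 1 of them, Ezh1, was lower, beside 18.5% of all tested genes. Ezh1 was at 51.8 and 55.3 TPM with vehicle and 37.3 and 32.4 TPM with TGFbeta (log2 change -0.61, SE 0.14, adjusted p = 0.0650). Ezh2 was at 51.6 and 44.6 TPM with vehicle and 34.9 and 39.8 TPM with TGFbeta (log2 change -0.36, SE 0.15, adjusted p = 0.218). Both had separate groups. Ezh1 stood at 1.00, 1.24, 1.07 and 0.815 times the TPM of Ezh2, with no separation between treatments. Among 25 tested partner subunits of the Polycomb complexes 1 fell and 0 rose, beside 4.38% and 1.54% of all tested genes. At an unadjusted p under 0.05, 8 (32.0%, beside 18.5%) were lower. The median log2 change of the 25 was -0.16, or -0.00924 after median scaling. The one that fell was Phf1, a Polycomb-like protein that binds PRC2, at 76.6 and 93.7 TPM with vehicle and 43.8 and 43.6 TPM with TGFbeta (log2 change -0.94, SE 0.15, adjusted p = 0.0270), a call that ended after median scaling (adjusted p = 0.0534).

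Lysine 9 methylation belongs to heterochromatin and silenced genes. Of 3 tested enzymes limma called 0. At an unadjusted p under 0.05 only Ehmt2 was lower, beside 18.5% of all tested genes. Ehmt2, or G9a, was at 174 and 194 TPM with vehicle and 132 and 106 TPM with TGFbeta, with a log2 change of -0.63 (SE 0.16, adjusted p = 0.0741). Its partner Ehmt1 had overlapping groups, and the level of Ehmt2 was 2.77 and 3.81 times that of Ehmt1 with vehicle and 2.42 and 2.18 times with TGFbeta. Suv39h1 was at 8.02, 7.22, 6.75 and 7.23 TPM, and its log2 change was -0.11, with 0.04 and 0.06 under median scaling and quantile normalization.

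The group of other SET domain proteins and Dot1l had 7 tested members. Of these limma called 0, and 1, Setd2, was lower at an unadjusted p under 0.05 (beside 18.5% of all tested genes). Their median log2 change was -0.17, or -0.0123 after median scaling. Setd5, the most abundant of them, was at 146 and 134 TPM with vehicle and 125 and 124 TPM with TGFbeta (log2 change -0.17, adjusted p = 0.479). Setd2, the enzyme of H3 lysine 36 trimethylation in transcribed genes, was at 82.2 and 81.8 TPM with vehicle and 59.4 and 63.3 TPM with TGFbeta (log2 change -0.41, adjusted p = 0.117). Its replicates lay close together and the groups were separate.

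Lysine demethylases remove methyl groups with flavin (Kdm1a and Kdm1b) or with iron and 2-oxoglutarate (the JmjC enzymes). Of 14 tested, limma called 0 and 4 were lower at an unadjusted p under 0.05 (beside 18.5% of all tested genes). In 5 the groups were separate with TGFbeta lower, beside 39.8% of all tested genes. The median log2 change was -0.13, with 0.02 and 0.01 under median scaling and quantile normalization. Kdm4b, a demethylase of lysine 9, was at 168 and 102 TPM with vehicle and 78.0 and 49.7 TPM with TGFbeta. It had the largest log2 change of all tested members, -1.06, yet an SE of 0.30 and an adjusted p of 0.0961. The vehicle libraries differed by 1.64-fold and the TGFbeta libraries by 1.57-fold, while the means of 135 ± 46.2 and 63.8 ± 20.0 TPM (SD, n = 2 each) differed by 2.12-fold. With genes under a mean of 5 TPM left out of the fit, its adjusted p was 0.0399. That fit called 11 of 77 members and 1034 of 11463 genes lower. Kdm4b was called in 2 of the 14 settings. Kdm6b, the lysine 27 demethylase known as an immediate response gene in several cell types, was at 37.5, 36.7, 47.1 and 35.9 TPM, and its groups overlapped.

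Arginine methyltransferases methylate histones and many RNA-binding proteins. Of 7 tested, limma called 0 and 0 had an unadjusted p under 0.05. Over all tested genes 18.5% were lower and 5.98% higher at that p. In 4 the groups were separate with TGFbeta higher (beside 15.5% of all tested genes) and in 1, Prmt2, with TGFbeta lower (beside 39.8%). The median log2 change was 0.27, against -0.13 for all tested genes, and 6 of the 7 lay above the median of all tested genes, as they did under both scaling alternatives. Prmt1, the main asymmetric dimethyltransferase, was at 182 and 183 TPM with vehicle and 236 and 214 TPM with TGFbeta, which is a log2 change of 0.30 (SE 0.13, adjusted p = 0.223). Prmt3, a ribosomal protein methyltransferase, was at 21.98 and 20.75 TPM with vehicle and 30.6 and 23.9 TPM with TGFbeta (log2 change 0.33, SE 0.17, adjusted p = 0.302). Neither gene was called in any of the 14 settings tried, in which their log2 changes ran from 0.23 to 0.46 for Prmt1 and from 0.16 to 0.50 for Prmt3.

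DNA methyltransferases add methyl groups to cytosine. Dnmt1, which copies the methylation pattern onto the new strand after replication, was at 41.5 and 42.3 TPM with vehicle and 24.6 and 22.6 TPM with TGFbeta. Replicates lay close together and the treatments were well apart. The means were 41.9 ± 0.535 and 23.6 ± 1.38 TPM (SD, n = 2 each), 1.78-fold lower, with a log2 change of -0.80 (SE 0.14, adjusted p = 0.0328), or -0.68 relative to the median of all tested genes. Dnmt1 (ENSMUSG00000004099.16, chr9:20907209-20959888, minus strand) shares no exon sequence with another annotated gene. Its promoter window, printed above, holds both E2F-type octamers.

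The methyltransferases that set new methylation were not called. Dnmt3a was at 56.1 and 62.2 TPM with vehicle and 42.7 and 43.0 TPM with TGFbeta (log2 change -0.46, SE 0.13, adjusted p = 0.106). Dnmt3b, low in these cells, was at 1.69 and 1.75 TPM with vehicle and 1.88 and 1.91 TPM with TGFbeta. Dnmt1 stood at 0.739 and 0.680 times the TPM of Dnmt3a with vehicle and at 0.576 and 0.526 times with TGFbeta.

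Among 18 tested heterochromatin and DNA methylation partners 2 fell and 0 rose, beside 4.38% and 1.54% of all tested genes. At an unadjusted p under 0.05, 3 (16.7%, beside 18.5%) were lower. The median log2 change of the 18 was -0.16, or -0.00776 after median scaling. Uhrf1, which brings Dnmt1 to hemimethylated sites behind the replication fork, was at 9.12 and 9.20 TPM with vehicle and 4.18 and 4.47 TPM with TGFbeta (log2 change -0.93, SE 0.18, adjusted p = 0.0405). Mbd1, a reader of methylated CpG, was at 73.3 and 61.4 TPM with vehicle and 39.2 and 37.2 TPM with TGFbeta (log2 change -0.80, adjusted p = 0.0390). Quantile normalization ended both calls (adjusted p = 0.0691 for Uhrf1 and 0.0572 for Mbd1), as did median scaling (0.0604 and 0.0546). Dnmt1 and Uhrf1 are known to be more abundant in dividing cells. Of 26 tested cell cycle markers 5 fell and 0 rose, beside 4.38% and 1.54% of all tested genes. At an unadjusted p under 0.05, 15 (57.7%, beside 18.5%) were lower and 1 higher (beside 5.98%). The markers' median log2 change was -0.56, or -0.40 after median scaling and -0.39 after quantile normalization. All 5 lower calls held after median scaling and 3 after quantile normalization. Mki67, Bub1b and Cdc20 had the largest called changes. The marker list summed to 417 and 367 TPM with vehicle and 274 and 288 TPM with TGFbeta, with no marker at 0 in any library. Mki67, a proliferation marker, was at 14.3, 10.9, 5.06 and 5.20 TPM. The log2 change lay under 0 for 23 of the 26 markers and above 0 for 3. Among these 3, Tyms was at 36.9, 35.6, 49.4 and 48.4 TPM, with separate groups. Pcna, also above 0, was at 42.2, 34.5, 35.5 and 46.5 TPM, with overlapping groups. None of the 5 marker calls held with any single library left out. The part of these values in the Dnmt1 and Uhrf1 results was not tested.

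TET enzymes oxidise methylcytosine. Of 3 tested limma called 0, and Tet1 was lower at an unadjusted p under 0.05 (beside 18.5% of all tested genes). Tet1, of which the site with the AU-rich nonamer is printed above, was at 2.94 and 3.48 TPM with vehicle and 1.88 and 1.62 TPM with TGFbeta (log2 change -0.61, SE 0.21, adjusted p = 0.148). Tet3, the most abundant of the 3, was at 25.5, 24.05, 31.3 and 24.2 TPM, with overlapping groups. The level of Tet3 was 8.67 and 6.90 times that of Tet1 with vehicle and 16.63 and 14.995 times with TGFbeta.

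Genes that work with these enzymes in complexes were counted in the same way. Among 24 tested subunits of deacetylase corepressor complexes limma called 0, and 7 (29.2%, beside 18.5% of all tested genes) were lower at an unadjusted p under 0.05. In 15 of the 24 (62.5%, beside 39.8%) both TGFbeta libraries lay under both vehicle libraries, and the median log2 change was -0.24, beside -0.13 for all tested genes. Among 34 tested subunits of the COMPASS and acetyltransferase complexes 1 fell and 0 rose, beside 4.38% and 1.54% of all tested genes. At an unadjusted p under 0.05, 7 (20.6%, beside 18.5%) were lower. The median log2 change of the 34 was -0.17, or -0.0157 after median scaling. The one that fell was Ing4, a reader of H3 lysine 4 trimethylation in the HBO1 acetyltransferase complex, at 65.7 and 70.4 TPM with vehicle and 39.9 and 38.2 TPM with TGFbeta (log2 change -0.79, SE 0.13, adjusted p = 0.0302). Its call ended after quantile normalization (adjusted p = 0.0508) and median scaling (0.0614). Among 32 tested modifying enzymes with other names 1 rose and 0 fell, beside 1.54% and 4.38% of all tested genes. The gene that rose was Padi4, a peptidylarginine deiminase that converts histone arginine to citrulline. It was at 0.869 and 0.408 TPM with vehicle and 6.56 and 3.19 TPM with TGFbeta (log2 change 1.79, SE 0.34, adjusted p = 0.0406). Padi4 is low in every library and its TGFbeta libraries differ widely from each other. Its vehicle mean of 0.64 TPM lay under the limit of 1 TPM, and it passed only through its TGFbeta mean of 4.87 TPM. The filter itself thus favoured a higher call. With a pseudocount of 5 the call ended (adjusted p = 0.0517). Leaving out any single library ended the calls of Phf1, Uhrf1, Mbd1 and Ing4 (adjusted p between 0.0944 and 0.224), and that of Padi4 held only without TGFbeta 2 (0.0460).

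The 4 calls rest on all 4 libraries: leaving out any 1 of vehicle 1, vehicle 2, TGFbeta 1 or TGFbeta 2 ended every one of them, with adjusted p between 0.0865 and 0.199 for Kat2b, 0.107 and 0.201 for Sirt7, 0.0996 and 0.202 for Dnmt1, and 0.0948 and 0.258 for Hdac7. Without vehicle 1 or without vehicle 2, 0 of all 15815 tested genes were called. Without TGFbeta 1 there were still 64 higher and 107 lower calls over all tested genes, and without TGFbeta 2 there were 65 and 138, none of them a member. Quantile normalization ended all 4 calls, and so did a fit without the intensity trend (adjusted p between 0.0558 and 0.0797) and a fit with every gene above 0 (between 0.0887 and 0.120). Median scaling ended those of Sirt7, Dnmt1 and Hdac7. Over both scalings the adjusted p of the lost calls lay between 0.0553 and 0.106. The direction of all 4 held in each of the 14 settings. As both TGFbeta libraries lay under both vehicle libraries in each gene, only quantile normalization and median scaling could have turned it.

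**Figure D4:**
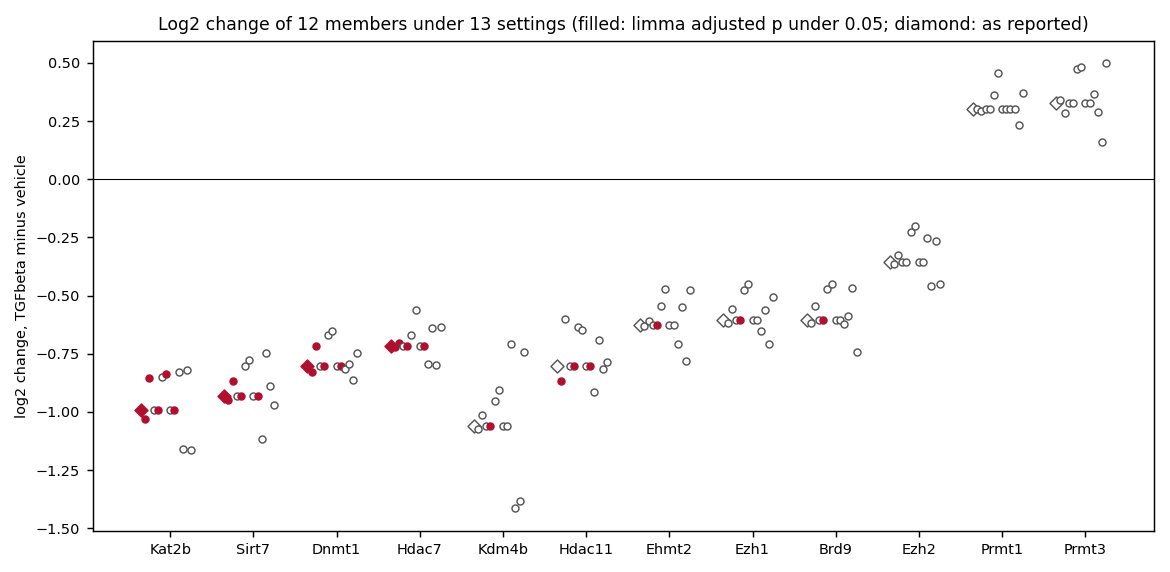
Log2 change (TGFbeta minus vehicle) of 12 members under the reported setting (diamond) and 12 of the 13 alternatives (circles; the fit with the replicate number as a block is not drawn), filled where limma's adjusted p is under 0.05. The 4 called members stay under 0 in each setting drawn, and Prmt1 and Prmt3 stay above 0 and are never filled. In all of these the groups were separate, so only quantile normalization and median scaling could have turned a sign.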

How the data were processed

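RNA of 4 libraries of cardiac fibroblasts was measured by sequencing. The authors deposited 1 TPM value per gene symbol and library, per the file headers, and each library sums to 1000000. The sources used here name no aligner, quantifier, build or annotation. Positions, overlaps and 3' untranslated regions come from GENCODE M21 (GRCm38) by symbol match.

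Levels were tested as log2(TPM + 1) for genes with a mean of at least 1 TPM with limma 3.58.1 (R 4.3.3). A linear model held treatment alone, eBayes moderated the variances along a mean-variance trend, tests were two-sided, and p-values were adjusted by Benjamini-Hochberg across every tested gene. Log2 changes are on this scale, which understates changes of low genes, while folds compare mean TPM. The procedure was run on simulated data with variances drawn from the model it fits and no scaling shift between libraries. Such data cannot decide how far scaling affects the calls. Members and gene lists were chosen with earlier results of these data known. Members are named by a rule: all called, the most abundant and the most changed of each role, and 16 fixed genes, 1 of which is counted but not reported here; the low members, the other members with both TGFbeta libraries above both vehicle libraries, and Ehmt1 are named beyond it. Of other lists, called members were named, at most 3 per direction. The 13 alternatives cover pseudocount, filter, scaling, variance model, replicate block and each library left out; with 1 library in a group, it is assumed to vary like the other group.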

Additional observations from a re-analysis of the deposited data

How the results depend on the processing

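The number of members that fell, 4 as reported, was 0 with every gene above 0 in the fit, 0 after quantile normalization, 0 without the intensity trend, 1 after median scaling (Kat2b), 2 with the replicate number as a block and 11 with a mean of at least 5 TPM; it was 5 with a pseudocount of 0.1, 4 with a pseudocount of 5 and 6 with robust variances. Without that trend 21 members had an unadjusted p under 0.05 with a lower level, after quantile normalization 12, and with every gene above 0 27. It was 0 with any single library left out, with 11 to 20 members lower at an unadjusted p under 0.05. The number that rose was 0 in all 14 settings. Lower calls over all tested genes were 692 as reported, 401 after median scaling, 401 after quantile normalization, 437 without the trend, 0 with every gene above 0 and 1034 with a mean of at least 5 TPM; higher calls were 244 as reported, 421 after median scaling and 333 after quantile normalization. In the replicate block fit, in which Kdm4b and Sirt7 were called (adjusted p = 0.0256 for Kdm4b) and Kat2b (0.0665), Dnmt1 (0.0682) and Hdac7 (0.0822) were not, all tested genes gave 186 higher and 445 lower calls. Deviations of same-numbered libraries from their group means correlated at r = -0.0539 over tested genes, and nothing in the labels pairs the samples. The members' median log2 change of -0.19 was -0.0773 after quantile normalization, -0.0381 after median scaling, and ranged from -0.27 to -0.17 with single libraries left out. The sign of the log2 change of 29 of 80 tested members changed in some setting and that of 51 did not. Among named members it turned positive after quantile normalization for Ep300 (0.0678), Hdac9 (0.14), Kat2a (0.0456) and Suv39h1 (0.0575), after median scaling for Ep300 (0.0860), Hdac9 (0.15), Kat2a (0.0600), Kmt2e (0.0310) and Suv39h1 (0.0449), and with a pseudocount of 0.1 for Hdac9 (0.00608). With single libraries left out it ranged across 0 for Ep300, Hdac4, Hdac9, Kdm6b, Sirt1 and Tet3: from -0.31 to 0.17 for Ep300, from -0.17 to 0.18 for Hdac4, from -0.21 to 0.20 for Hdac9, from -0.0487 to 0.33 for Kdm6b, from -0.17 to 0.19 for Sirt1 and from -0.0284 to 0.33 for Tet3. The cause was not tested. TPM keeps no depth, so no counting interval can be given for low members.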

Other observations

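Modifying enzymes draw on small metabolites: S-adenosylmethionine for methylation, acetyl-CoA for acetylation, NAD for sirtuins and 2-oxoglutarate for JmjC and TET enzymes. Of 27 tested genes that supply, use or act near these metabolites, 1 rose and 2 fell, beside 1.54% and 4.38% of all tested genes. The median log2 change of the 27, -0.14, lay near the -0.13 of all tested genes and turned to 0.01 after median scaling. Mthfd2, a mitochondrial enzyme of the folate cycle, was at 81.3 and 52.0 TPM with vehicle and 135 and 143 TPM with TGFbeta (log2 change 1.08, SE 0.22, adjusted p = 0.0472). Idh2, the mitochondrial isocitrate dehydrogenase that makes 2-oxoglutarate, was at 72.7 and 77.7 TPM with vehicle and 42.6 and 42.1 TPM with TGFbeta (log2 change -0.81, SE 0.13, adjusted p = 0.0269). Naprt, which makes NAD from nicotinic acid, was at 20.49 and 19.03 TPM with vehicle and 9.40 and 8.48 TPM with TGFbeta (log2 change -1.06, SE 0.16, adjusted p = 0.0242). All 3 had separate groups. Their calls ended with any single library left out (adjusted p between 0.0899 and 0.195), and that of Idh2 after median scaling (0.0529).

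Among the cell type markers, 0 of 11 tested leukocyte, 0 of 9 endothelial and 0 of 6 cardiomyocyte markers were called by limma. At an unadjusted p under 0.05, 2, 3 and 2 of them were lower and 0 higher. The lower shares are 18.2%, 33.3% and 33.3%, beside 18.5% of all tested genes. Of 8 tested smooth muscle and pericyte markers 1 rose and 1 fell, beside 1.54% and 4.38% of all tested genes. Mcam rose from 15.2 and 13.6 TPM to 29.3 and 29.4 TPM (log2 change 0.98, adjusted p = 0.0242). Notch3 fell from 74.0 and 83.9 TPM to 21.1 and 17.4 TPM (log2 change -1.99, adjusted p = 0.00633). With single libraries left out, the log2 change ran from 0.91 to 1.05 for Mcam and from -2.12 to -1.85 for Notch3. Elavl1, the gene of HuR, was at 51.1 and 45.7 TPM with vehicle and 51.2 and 54.7 TPM with TGFbeta (log2 change 0.13, adjusted p = 0.621).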
